A study of Mus musculus with 4 samples.

Results

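Serpins form a family of protease inhibitors, and the mouse carries them as several gene clusters of close copies. An inhibitory serpin offers an exposed reactive loop as bait, the protease cuts it, and the loop then folds into the body of the serpin and drags the protease along, which traps it. In a healing wound, secreted serpins restrain plasmin formation, clotting and complement, intracellular serpins protect leukocytes from their own granule and lysosomal proteases, and a few family members do not inhibit proteases and serve as collagen chaperones or secreted factors. Members were taken by name, as every row of the deposited transcript table whose gene symbol begins with Serpin, a clade letter from a to i and a number. This gave 63 genes with 82 transcripts, of 24358 genes with 34535 transcripts in all.

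The study compared CD301b macrophages, which bear the C-type lectin CD301b, with F4/80-negative immune cells. Both were sorted from the dermis of wound beds of male C57/Bl6 mice of 7 weeks on day 5, with 2 libraries in each population and no transgene, deletion or drug named in the labels. Expression came as 1 FPKM (a level per transcript length and sequencing depth) for each transcript and population, so no spread between libraries, read count or depth stands behind any value here. FPKM was summed over the transcripts of a gene. A gene was called higher or lower in CD301b macrophages when at least 1 of its transcripts passed an adjusted p of 0.05 (Benjamini-Hochberg, applied to Cuffdiff's p-values, which the authors' deposited table lists), none passed in the other direction, and the sum over transcripts pointed that way too. The labels do not say whether libraries came from separate animals, so these p-values may cover technical spread only.

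The populations matched their labels in part. All 9 measured macrophage markers were higher in CD301b macrophages (11% over all tested genes), with a summed level of 7022 against 2151 FPKM. The F4/80-negative cells still held 151 FPKM of Adgre1, which encodes F4/80. Transcripts of cells outside the immune lineage were present in both. The 10 fibroblast markers summed to 4546 FPKM in CD301b macrophages and 6772 FPKM in F4/80-negative cells, and the 10 keratinocyte markers to 171 and 215 FPKM, with no marker of either list at 0. Dendritic cell markers differed more, with 8 of 10 lower (6.2% over all tested genes) and a summed level of 71.0 against 322 FPKM. Ccr7, the receptor of migrating dendritic cells, was at 8.39 against 63.4 FPKM. Of 9 measured neutrophil markers, 3 were lower (6.2% over all tested genes): S100a8 (938 against 1725 FPKM), S100a9 (1092 against 2025 FPKM) and Csf3r (68.1 against 71.3 FPKM). Ngp was the 1 called higher (2.78 against 0.464 FPKM), where 11% of all tested genes were higher. Cxcr2, Mmp8, Camp and Ltf were higher by value without a call, and Retnlg was lower by value. The summed levels, 2188 against 3927 FPKM, came mostly from S100a8 and S100a9. The median log2 fold of the list was 0.0093 for markers at 1 FPKM or more in either population. No marker of these lists was at 0, and their part in the serpin differences was not tested. Fewer cells of a type and less RNA per cell cannot be told apart in such bulk samples. With levels divided by the median gene of each population, log2 differences moved by 0.11 toward F4/80-negative cells, and no serpin at 1 FPKM or more changed direction.

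The clade B serpins Serpinb6a and Serpinb6b, close copies of each other, were called in opposite directions, so the sequences that separate them come first. The loop is what a serpin shows to its protease, and the DNA that encodes it is printed for the 5 expressed clade B genes of the intracellular group, from the conserved hinge (a translated Glu-x-Gly pattern found by script) to the Pro-Phe that follows the loop. Sequences run 5′ to 3′ in coding sense and come from GENCODE M21 transcripts on GRCm38. Capitals mark bases that differ from Serpinb6a, or have no partner in it, in a pairwise alignment.
Serpinb6a: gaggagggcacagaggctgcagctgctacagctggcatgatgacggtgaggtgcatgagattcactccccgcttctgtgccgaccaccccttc
Serpinb6b: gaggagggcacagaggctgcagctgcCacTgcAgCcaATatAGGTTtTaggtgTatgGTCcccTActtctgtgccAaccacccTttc
Serpinb8: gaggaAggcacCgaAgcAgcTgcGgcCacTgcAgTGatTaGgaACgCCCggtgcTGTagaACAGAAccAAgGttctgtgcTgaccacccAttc
Serpinb9: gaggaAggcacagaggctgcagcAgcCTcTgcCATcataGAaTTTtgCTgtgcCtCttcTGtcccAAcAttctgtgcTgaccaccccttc
Serpinb1a: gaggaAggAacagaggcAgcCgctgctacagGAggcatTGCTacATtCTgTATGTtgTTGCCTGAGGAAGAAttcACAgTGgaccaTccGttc

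Serpinb6b has no capitals at its hinge end. Serpinb6b differed from Serpinb6a at 20 of its 87 bases, with 77.0% of aligned loop bases identical, against 86.4% over the whole coding sequence. Serpinb1a was the least like Serpinb6a in this stretch among the genes printed (41 of 93 bases in capitals). Few exact 50-base words of the close copies are shared: 2.87% of those of the Serpinb6a transcript and 3.13% of those of Serpinb6b occur in transcripts of other genes. How well the reads separate the copies was not tested, since no mismatch setting is stated in these sources.

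Of the 63 serpins, 18 reached 1 FPKM in at least 1 population, 45 stayed below it in both, and 11 of these were listed at 0 in both. The authors' table tested 22 serpins. Of those, 2 were higher in CD301b macrophages, Serpinb6a and Serpinb8, and 7 were lower, among them Serpinf1, Serping1, Serpinb6b, Serpinb5, Serpina3j and Serpina3b. These 9 calls are 40.9% of the tested serpins, beside 17.2% called among all 13039 tested genes. By direction, 9.09% of tested serpins were higher, beside 11% of all tested genes, and 31.8% were lower, beside 6.2%. The median log2 fold of the 18 serpins was -0.46 on the log2(FPKM + 1) scale, beside 0.07 over the 11964 genes under the same filter. Over all 63 serpins, most of them near 0 in both populations, the serpin median was -0.072. Both medians describe genes that passed the filter in either population. Serpina3b, Serpina3c and Serpina3j passed it only in F4/80-negative cells and Serpina3f only in CD301b macrophages.

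**Figure D1:**
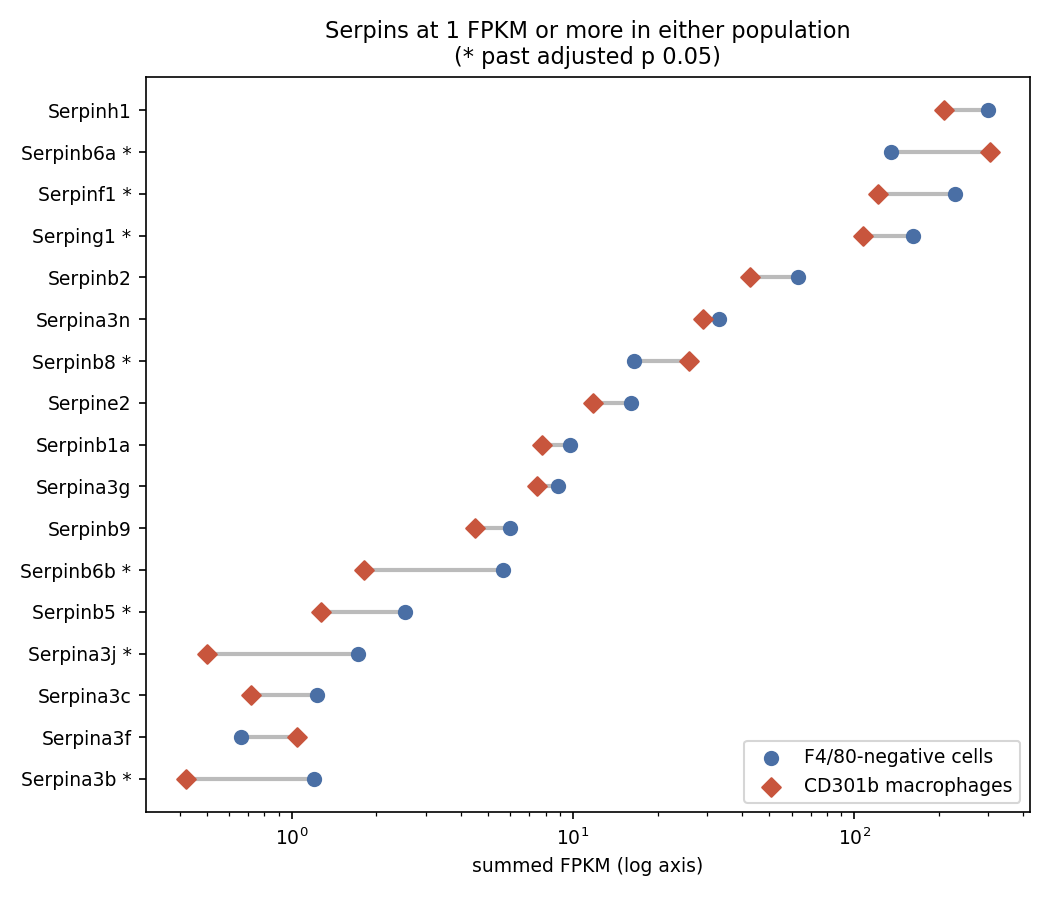
Summed FPKM (log axis) of 17 serpins that reached 1 FPKM in at least 1 population, ordered by mean level, with circles for F4/80-negative cells and diamonds for CD301b macrophages (1 value per population, no error available) and a star after genes called at an adjusted p of 0.05. The diamond lies to the right of the circle for Serpinb6a, Serpinb8 and Serpina3f alone, and to the left for the other 14 genes.

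The serpin RNA of both populations was concentrated in a few genes. Serpinb6a, Serpinh1, Serpinf1, Serping1 and Serpinb2 made up 82.0% of the summed serpin FPKM in CD301b macrophages and 79.3% in F4/80-negative cells. Their order differed at the top. Serpinb6a ranked first in CD301b macrophages with 31.7% of the sum, and at rank 4 in F4/80-negative cells with 12.1%, where Serpinh1 ranked first with 26.7%. From Serpinb2 down to Serpinb5, ranks 6 to 14, both populations had the same order. The sum itself was 957 FPKM in CD301b macrophages and 1118 FPKM in F4/80-negative cells, and without Serpinb6a it was 654 against 982 FPKM. No spread is available to say which neighbours in these orders differ.

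Serpinb6a, an intracellular inhibitor of trypsin-like proteases and cathepsin G, showed the largest rise of the family. The gene (NCBI gene 20719, chromosome 13, 33917918 to 34002794, GRCm38) stood at 303 FPKM in CD301b macrophages and 136 FPKM in F4/80-negative cells. That is 2.24-fold higher, a log2 fold of 1.15, at an adjusted Cuffdiff p of 0.000999 (authors' deposited table), the smallest that table allows. Among the 11964 genes at 1 FPKM or more, 97.6% lay below Serpinb6a in CD301b macrophages and 95.3% in F4/80-negative cells. Nqo2 and Ripk1 overlap Serpinb6a on the opposite strand, at 8.12 against 5.60 FPKM and 26.4 against 18.7 FPKM in the same order. Neither was past the threshold, and a strand setting for the counting is not stated in these sources.

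One transcript carried nearly all of Serpinb6a. The deposited table lists 4, and the one that starts at 33936198 in GENCODE was 300.05 FPKM in CD301b macrophages and 134 FPKM in F4/80-negative cells, 99.0% and 98.9% of the gene. A transcript from a start farther upstream, at 34002794, was 1.03 against 0.635 FPKM and missed the threshold. The 250 bases before the minor start held 20 CpG pairs, with a median of 6 per 250 bases over 32851 mouse promoters. Before the major start only 135 bases were searched, with 1 CpG pair, so its count cannot be compared with counts per 250 bases. These 135 bases belong to a 250-base window (2 CpG pairs) that ends at another start, 33936083. The transcript from there was 0.505 against 0 FPKM. Capitals mark GC boxes (GGGCGG), a gamma-activated site (TTCNNNGAA), PU.1 cores (GAGGAA), AP-1 sites (TGANTCA) and TATA boxes (TATAAA), searched on both strands in the 250 bases before each RefSeq start. The sequences printed stop before the first annotated exon base, are from RefSeq on GRCm38.p6 and run 5′ to 3′ on the strand of the gene. They are shown for the paralogs with opposite calls, for Serpinb8, which was called higher with Serpinb6a, and for Serpinb2, whose transcripts differed.
Serpinb6a, minor start, chr13:34002795-34003044, minus strand: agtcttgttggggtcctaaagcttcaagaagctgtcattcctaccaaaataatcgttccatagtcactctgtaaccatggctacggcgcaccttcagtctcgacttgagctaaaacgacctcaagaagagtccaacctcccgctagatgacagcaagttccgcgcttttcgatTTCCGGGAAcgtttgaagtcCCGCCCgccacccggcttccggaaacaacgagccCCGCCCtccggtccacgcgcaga
Serpinb6a, major start, chr13:33936199-33936333, minus strand: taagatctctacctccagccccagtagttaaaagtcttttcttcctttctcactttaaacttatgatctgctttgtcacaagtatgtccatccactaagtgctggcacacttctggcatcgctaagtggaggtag
Serpinb6b, chr13:32965011-32965208, plus strand: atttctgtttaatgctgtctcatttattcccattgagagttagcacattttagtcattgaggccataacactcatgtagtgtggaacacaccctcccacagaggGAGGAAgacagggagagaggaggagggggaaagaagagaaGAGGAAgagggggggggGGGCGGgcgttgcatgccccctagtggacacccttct
Serpinb8, chr1:107589756-107590005, plus strand: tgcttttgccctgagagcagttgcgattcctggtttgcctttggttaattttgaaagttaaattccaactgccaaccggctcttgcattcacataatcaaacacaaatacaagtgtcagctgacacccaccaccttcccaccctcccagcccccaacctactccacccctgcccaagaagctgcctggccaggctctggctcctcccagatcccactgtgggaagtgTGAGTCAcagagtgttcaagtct
Serpinb2, upstream start, chr1:107511173-107511422, plus strand: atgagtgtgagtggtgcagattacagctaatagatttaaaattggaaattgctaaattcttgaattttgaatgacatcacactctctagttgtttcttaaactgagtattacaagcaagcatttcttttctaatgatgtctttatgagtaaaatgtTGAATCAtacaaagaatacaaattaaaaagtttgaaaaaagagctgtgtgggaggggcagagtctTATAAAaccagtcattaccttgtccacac

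These motifs are descriptions of letters, not of binding. In the promoters of the 15 serpins at 1 FPKM or more that matched RefSeq by symbol (18 windows), the GC box was found in 27.8% of windows, beside 32.7% of all 32851. The TATA box was found in 5 windows (27.8%) beside 12.4% and the AP-1 site in 4 (22.2%) beside 6.75%. The gamma-activated site was found in 5 (27.8%) beside 7.02% and the PU.1 core in 3 (16.7%) beside 23.3%. Windows of a gene with several starts can overlap, as those of Serpinb2 and Serpina3f do, and a site in the overlap is counted in both windows. The TATA box and AP-1 site of Serpinb2 and the gamma-activated site of Serpina3f were counted in this way. The printed windows share no motif across both genes called higher: the Serpinb8 window held an AP-1 site and the windows of Serpinb6a held none.

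Serpinb8, an inhibitor of the proprotein convertase furin, was the other serpin called higher, at 25.9 FPKM in CD301b macrophages against 16.5 FPKM in F4/80-negative cells. The difference was 1.57-fold, with an adjusted Cuffdiff p of 0.0328 (authors' deposited table). Its call rested on the less abundant of its transcripts, at 11.6 against 6.18 FPKM. The more abundant one, at 14.3 against 10.3 FPKM, went the same way with an adjusted Cuffdiff p of 0.112 (authors' deposited table). Furin, its known target, was 36.6 FPKM in CD301b macrophages and 39.7 FPKM in F4/80-negative cells, without a call.

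Serpinb6b was lower, at 1.81 FPKM in CD301b macrophages against 5.65 FPKM in F4/80-negative cells. It was 3.11-fold lower, with a log2(FPKM + 1) fold of -1.24 and an adjusted Cuffdiff p of 0.000999 (authors' deposited table). The other tested clade B inhibitors of leukocyte proteases were Serpinb9, which blocks granzyme B, and Serpinb1a, which blocks neutrophil elastase, cathepsin G and proteinase 3. Serpinb9 was 4.47 against 5.99 FPKM and Serpinb1a 7.75 against 9.75 FPKM, both lower by value and neither past the threshold. Of the 17 genes of this role, 5 were tested, 2 were higher (11% over all tested genes) and 1 was lower (6.2%). The other 12 stayed at or below 0.408 FPKM.

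**Figure D2:**
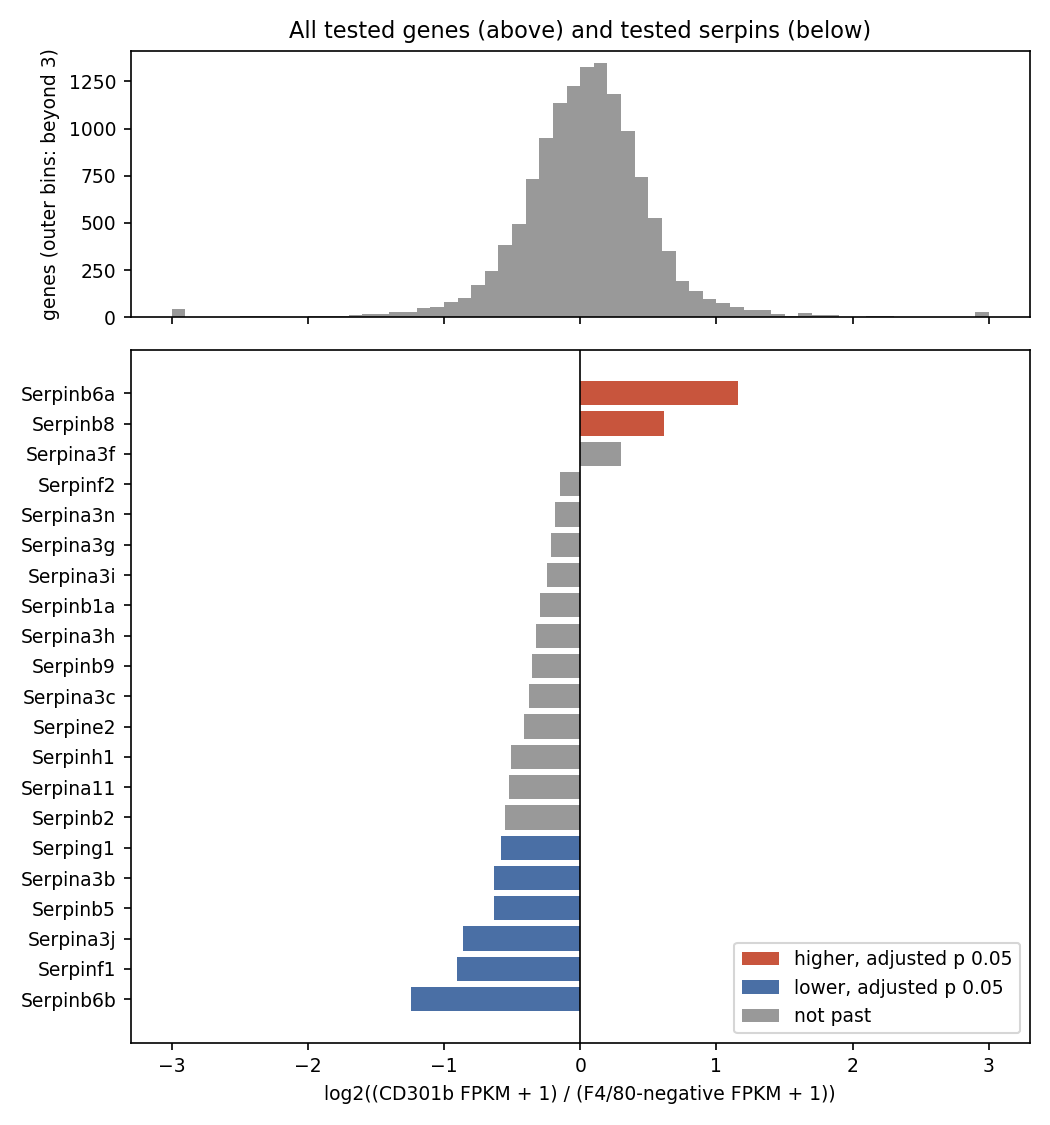
Histogram of the log2 fold, log2((CD301b FPKM + 1) / (F4/80-negative FPKM + 1)), of all 13039 tested genes (values beyond 3 in the outer bins) above bars of the same quantity for 21 tested serpins, coloured by call. Bars to the right of 0 belong to Serpinb6a (1.15), Serpinb8 (0.62) and Serpina3f (0.30), and Serpinb6b (-1.24) and Serpinf1 (-0.90) reach farthest to the left.

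Serpins of plasminogen activation and clotting ranged from abundant to absent. Serpine2, protease nexin 1, which blocks thrombin and uPA, was 11.8 against 16.05 FPKM and gave no call. Serpinf2, the plasmin inhibitor alpha 2-antiplasmin, was 0.499 against 0.662 FPKM, also without a call. Serpinc1 and Serpind1, the plasma inhibitors antithrombin and heparin cofactor II, were below 0.2 FPKM in both populations and were not tested, and Serpina5 was listed at 0 in both.

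Serpinb2, plasminogen activator inhibitor 2, an inhibitor of uPA abundant in activated monocytes, gave no call for the gene and an uneven picture for its transcripts. The gene was 42.7 FPKM in CD301b macrophages and 63.1 FPKM in F4/80-negative cells. The transcript that starts at 107511423, directly after the printed window, was 6.75 against 31.1 FPKM. A second, starting at 107511497 in GENCODE, was 36.0 against 32.0 FPKM, so it was higher by value. The first therefore made up 15.8% of the gene in CD301b macrophages and 49.3% in F4/80-negative cells. Neither transcript was past the threshold by the Benjamini-Hochberg adjustment across all tested transcripts. Their adjusted Cuffdiff p-values from the authors' deposited table were 0.253 and 0.639. In the printed window a TATA box lies 29 bases before the first start.

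**Figure D3:**
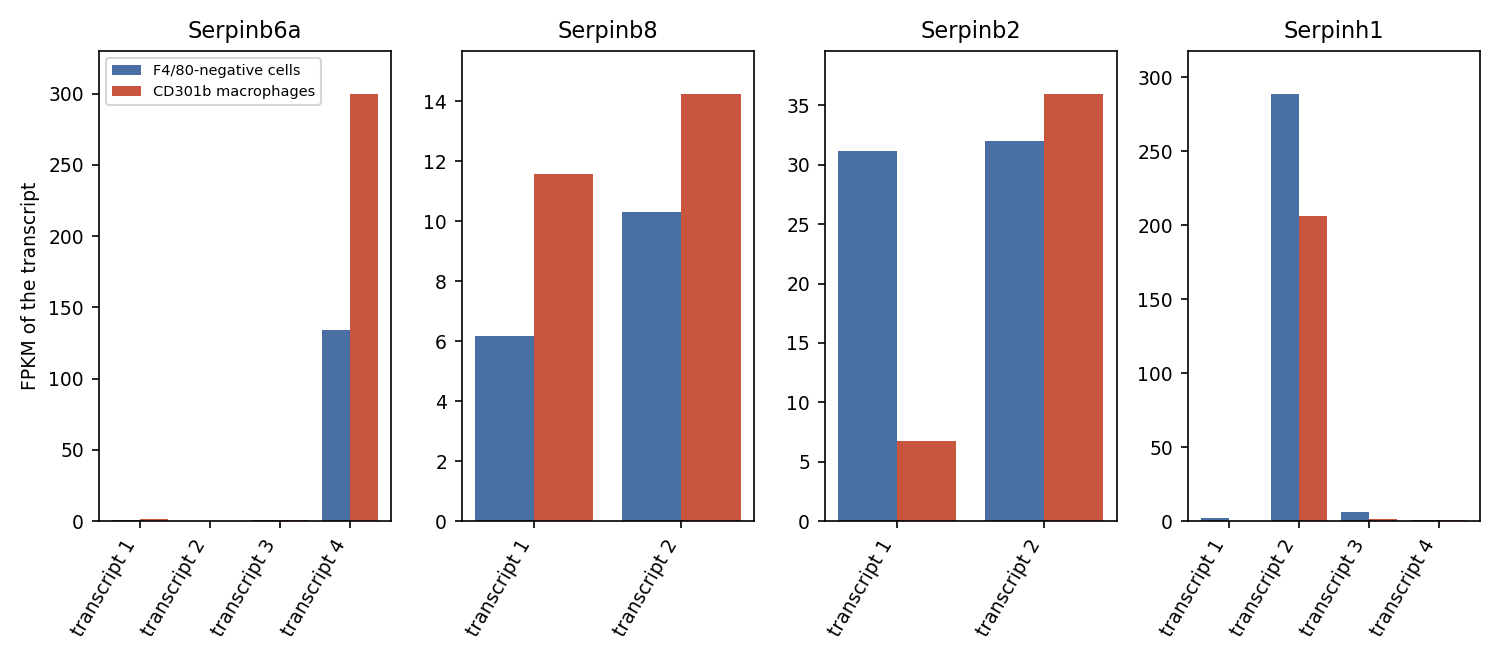
FPKM of each listed transcript of Serpinb6a, Serpinb8, Serpinb2 and Serpinh1 in F4/80-negative cells and CD301b macrophages, 1 value per population and with a separate linear axis for each gene. A single transcript holds nearly all of Serpinb6a (300.05 against 134 FPKM) and of Serpinh1 (206 against 289 FPKM), whereas in Serpinb2 transcript 1 stands at 6.75 against 31.1 FPKM and transcript 2 at 36.0 against 32.0 FPKM.

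The proteases and receptors around these serpins were called in both directions. Of 20 genes of plasminogen activation and clotting, 17 were tested, 7 were lower and 1 was higher, where 6.2% of all tested genes were lower and 11% higher. Plaur, the uPA receptor, was 78.1 against 183 FPKM, 2.34-fold lower, and Plat, which encodes tPA, was 27.4 against 48.2 FPKM, 1.76-fold lower. Plau, which encodes uPA, was 84.2 against 59.8 FPKM, which missed the threshold. Clotting factors were lower as well: F3, tissue factor, at 15.2 against 32.0 FPKM (2.10-fold), and F10, clotting factor X, at 14.4 against 40.8 FPKM (2.84-fold). Procr, the endothelial protein C receptor, was 2.48-fold lower. F13a1, the fibrin-crosslinking factor XIII subunit, was the member called higher, at 399 against 104 FPKM (3.86-fold). Anxa2, a plasminogen-binding annexin and the most abundant gene of the list, was 790.1 against 952 FPKM and not past the threshold. Plg, F2 and Proc, which encode the plasma zymogens plasminogen, prothrombin and protein C, were listed at 0 in both populations.

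Serping1, the C1 inhibitor that blocks C1r, C1s and plasma kallikrein, was lower in CD301b macrophages (NCBI gene 12258, chromosome 2, 84765360 to 84775444, GRCm38). It was 108 FPKM against 161.5 FPKM in F4/80-negative cells (log2 fold of -0.58), with an adjusted Cuffdiff p of 0.0303 (authors' deposited table). Of 12 measured complement and contact protease genes, 7 were tested, 3 were lower (6.2% over all tested genes) and 1 was higher (11%). C1s1, a target of the C1 inhibitor, was 26.7 against 48.6 FPKM and lower, and C1ra, another target, was 28.2 against 33.3 FPKM and not past the threshold. C2, a complement convertase component, was lower at 8.07 against 12.6 FPKM, as was the related C1s2 (log2 fold of -0.51). Cfb, factor B of the alternative pathway, was higher at 130 against 75.2 FPKM. Klkb1, F11 and F12 of the contact system were at or below 0.128 FPKM in both populations.

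Serpins without inhibitory activity were the most abundant of the family in F4/80-negative cells. Serpinf1 encodes pigment epithelium-derived factor, a secreted factor that restrains vessel growth (NCBI gene 20317, chromosome 11, 75410029 to 75422623, GRCm38). It was 122 FPKM in CD301b macrophages and 228 FPKM in F4/80-negative cells, 1.88-fold lower, with an adjusted Cuffdiff p of 0.000999 (authors' deposited table). Serpinh1, or HSP47, the chaperone of procollagen in the endoplasmic reticulum, was 209 against 298 FPKM. Its main transcript, 98.6% of the gene in CD301b macrophages, was 206 against 289 FPKM, with an adjusted Cuffdiff p of 0.0865 (authors' deposited table), so no call was made. Serpina6 and Serpina7, carriers of corticosteroid and thyroid hormone, were listed at 0 in both.

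Collagen genes and fibroblast markers are given here beside these serpins. Of 19 measured genes of procollagen and its processing, 3 were lower, 1 was higher and 15 gave no call, so that 4 of 19 were called where 17.2% of all tested genes were. Their median log2 fold was -0.39. Col5a2 (67.0 against 112 FPKM), Col6a1 (124 against 190 FPKM) and Col4a1 (22.3 against 33.3 FPKM) were lower, and Plod1, a collagen lysyl hydroxylase, was higher at 73.6 against 42.3 FPKM. Col3a1, the most abundant, was 1401 against 2356 FPKM and not past the threshold. Of the 10 fibroblast markers, 2 were lower (6.2% over all tested genes): Postn (282 against 491 FPKM) and Lum (70.7 against 116 FPKM). All 10 were lower by value, with a median log2 fold of -0.50. Single markers ran from -0.31 (Pdgfrb) to -0.80 (Postn). The log2 folds of Serpinh1 (-0.51) and Serping1 (-0.58) lay within that range, and that of Serpinf1 (-0.90) lay below it. The part of fibroblast RNA in these serpin differences was not tested.

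Clade A serpins were led by Serpina3n, a secreted inhibitor of leukocyte serine proteases, at 28.9 FPKM in CD301b macrophages and 33.1 FPKM in F4/80-negative cells. Serpina3g, an intracellular inhibitor of cathepsins, followed at 7.47 against 8.83 FPKM. Neither was past the threshold. The other 9 Serpina3 copies were at or below 1.72 FPKM, and 2 of them were lower: Serpina3j at 0.498 against 1.72 FPKM (3.46-fold, adjusted Cuffdiff p = 0.00624) and Serpina3b at 0.422 against 1.20 FPKM (2.86-fold, adjusted Cuffdiff p = 0.0106), by the authors' deposited table. Serpina3c was 0.719 against 1.23 FPKM and Serpina3f 1.04 against 0.662 FPKM, neither past the threshold. Serpina3h, Serpina3i and Serpina11 were tested below 1 FPKM, at 0.399 against 0.753, 0.489 against 0.762 and 0.0955 against 0.571 FPKM, and gave no call. The Serpina3 copies are alike, with 82.3% of aligned coding bases identical between Serpina3b and Serpina3j and 87.4% between Serpina3f and Serpina3g. Of the 50-base words of Serpina3g, 16.02% occur in transcripts of other genes, as do 10.9% of those of Serpina3f and 6.90% of Serpina3n. For Serpina3b and Serpina3j the shares were 2.92% and 3.13%. Part of the reads of these copies may therefore not be assigned with certainty, which was not tested. None of the 6 Serpina1 genes, which encode the liver antiprotease alpha 1-antitrypsin, was tested or passed 0.0951 FPKM.

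Among the clade B serpins of squamous epithelium, Serpinb5 alone was expressed. Serpinb5, or maspin, was 1.27 FPKM in CD301b macrophages and 2.52 FPKM in F4/80-negative cells, 1.99-fold lower, with an adjusted Cuffdiff p of 0.0125 (authors' deposited table). The remaining 8 genes of the group, among them the Serpinb3 copies, were at or below 0.457 FPKM. Of the 10 keratinocyte markers, 1 was lower (6.2% over all tested genes), Dsg3 (0.398 against 0.791 FPKM). The most abundant, Krt14, was 61.7 against 78.1 FPKM and not past the threshold. Keratinocyte markers at 1 FPKM or more in either population had a median log2 fold of -0.37, from -0.13 (Krt17) to -0.59 (Krt15). Serpinb5 had -0.63. By ratio, Dsg3 was 1.99-fold lower, like Serpinb5, and Trp63 was 2.32-fold lower without a call. Every other keratinocyte marker was lower by a smaller ratio. The part of keratinocyte RNA in the Serpinb5 difference was not tested. Serpini1, the neuronal serpin neuroserpin, and Serpine3 stayed below 0.5 FPKM, and Serpini2 and the pseudogene Serpina4-ps1 were listed at 0.

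Expressed and silent copies lay side by side in the gene clusters. On chromosome 13, 15 serpins lie within 1.16 Mb, and Serpinb6a stands at one end at 303 FPKM in CD301b macrophages while its nearest serpin neighbours, Serpinb6c, Serpinb6e and Serpinb6d, were at or below 0.263 FPKM. The 6 copies of Serpinb9 on the same chromosome were at or below 0.408 FPKM, and 4 were listed at 0 in both populations. On chromosome 12, 24 serpins lie within 0.798 Mb and 6 reached 1 FPKM, all of them Serpina3 copies. On chromosome 1, 12 serpins lie within 0.748 Mb, and 3 reached 1 FPKM. Serpinb2 and Serpinb8 are close neighbours there. By RefSeq positions Serpinb10 (0.155 against 0.405 FPKM) lies between them, and in GENCODE it overlaps Serpinb2 on the same strand. The summed levels of Serpinb2 and Serpinb8 went in opposite directions by value, but Serpinb2 had no call. Its more abundant transcript was higher by value (36.0 against 32.0 FPKM), as Serpinb8 was.

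**Figure D4:**
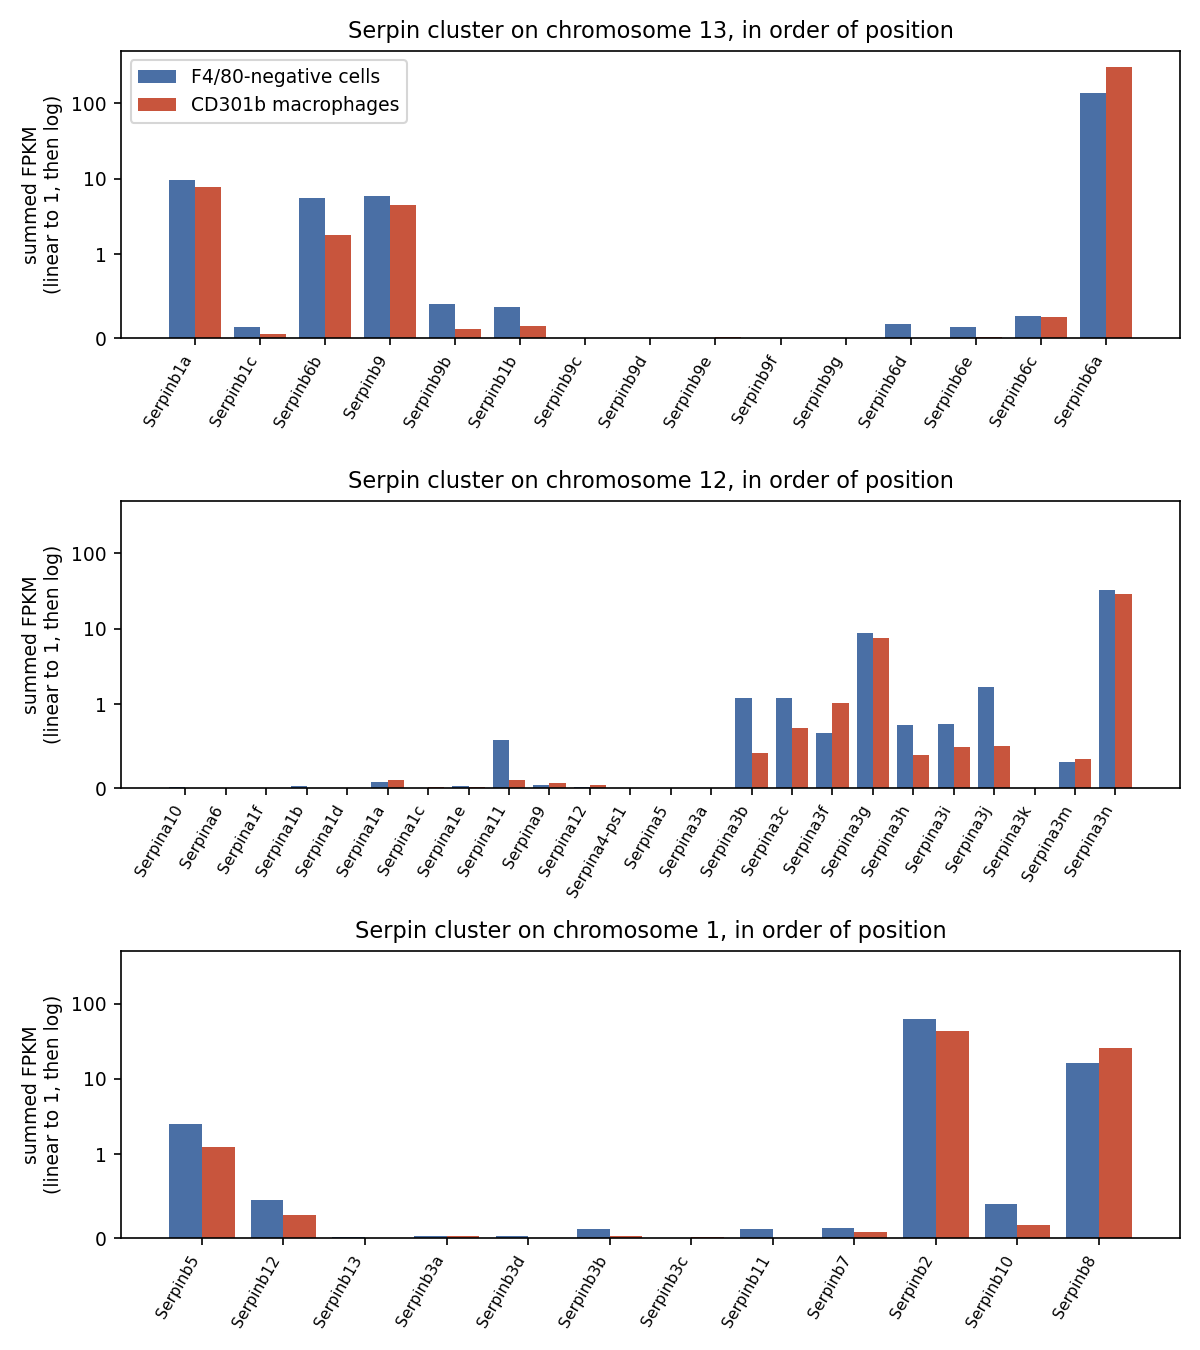
Summed FPKM (axis linear to 1, then logarithmic) of every serpin in the clusters of chromosomes 13, 12 and 1, in order of position, for F4/80-negative cells and CD301b macrophages. Expressed genes stand beside silent copies, as with Serpinb6a (303 against 136 FPKM) next to Serpinb6c (at or below 0.263 FPKM), and all 6 genes above 1 FPKM on chromosome 12 are Serpina3 copies.

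The proteases that intracellular serpins meet in leukocytes were of different kinds in these cells. Of 18 leukocyte granule serine proteases, 9 were tested, 3 were lower in CD301b macrophages (6.2% over all tested genes) and 6 gave no call. All 3 are mast cell proteases: Mcpt4 (5.93 against 16.9 FPKM), Cma1 (6.01 against 15.5 FPKM) and Tpsb2 (2.94 against 7.85 FPKM). Elane, neutrophil elastase, was listed at 0, Ctsg, cathepsin G, was at or below 0.189 FPKM, and Gzmb, the target of Serpinb9, was 1.01 against 1.48 FPKM and not past the threshold. Of the 10 mast cell and basophil markers, 6 were lower (6.2% over all tested genes): these same 3 proteases and Kit, Cpa3 and Gata2. Summed levels of the markers were 106 against 167 FPKM, mostly from Hdc (84.9 against 108 FPKM, no call). The lists share Mcpt4, Cma1, Tpsb2 and Mcpt8. Their part in the serpin differences was not tested.

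Cathepsins and other intracellular proteases summed to 6922 FPKM in CD301b macrophages and 4528 FPKM in F4/80-negative cells, where granule serine proteases summed to 21.3 and 49.3 FPKM. Of 12 genes of cathepsins and intracellular proteases, all were tested, 4 were higher (11% over all tested genes) and 1 was lower (6.2%). Ctsb was 1765 against 612 FPKM (2.88-fold higher) and Ctsc, which activates granule serine proteases, was 674 against 270 FPKM (2.50-fold higher). Ctsl (643 against 357 FPKM) and Ctsh (521 against 319 FPKM) were higher too, and Ctsk, the collagen-degrading cathepsin, was 5.56-fold lower. Ctss, the most abundant, was 2509 against 1871 FPKM and not past the threshold.

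Inhibitors outside the serpin family were called in both directions. Of 19 measured genes, 12 were tested, 6 were lower (6.2% over all tested genes), 1 was higher (11%) and 5 gave no call. Spint1 and Spint2, membrane-bound Kunitz inhibitors, were 4.49-fold and 3.79-fold lower (4.32 against 19.4 FPKM and 2.80 against 10.6 FPKM). Slpi, secretory leukocyte protease inhibitor, was 70.2 against 116 FPKM, and Pi16 was 16.5 against 28.8 FPKM, both lower. Wfdc17, a small secreted whey acidic protein domain gene of macrophages, was higher at 1534 against 577 FPKM (2.66-fold). That single gene exceeded the summed FPKM of all serpins in CD301b macrophages (957 FPKM).

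**Figure D5:**
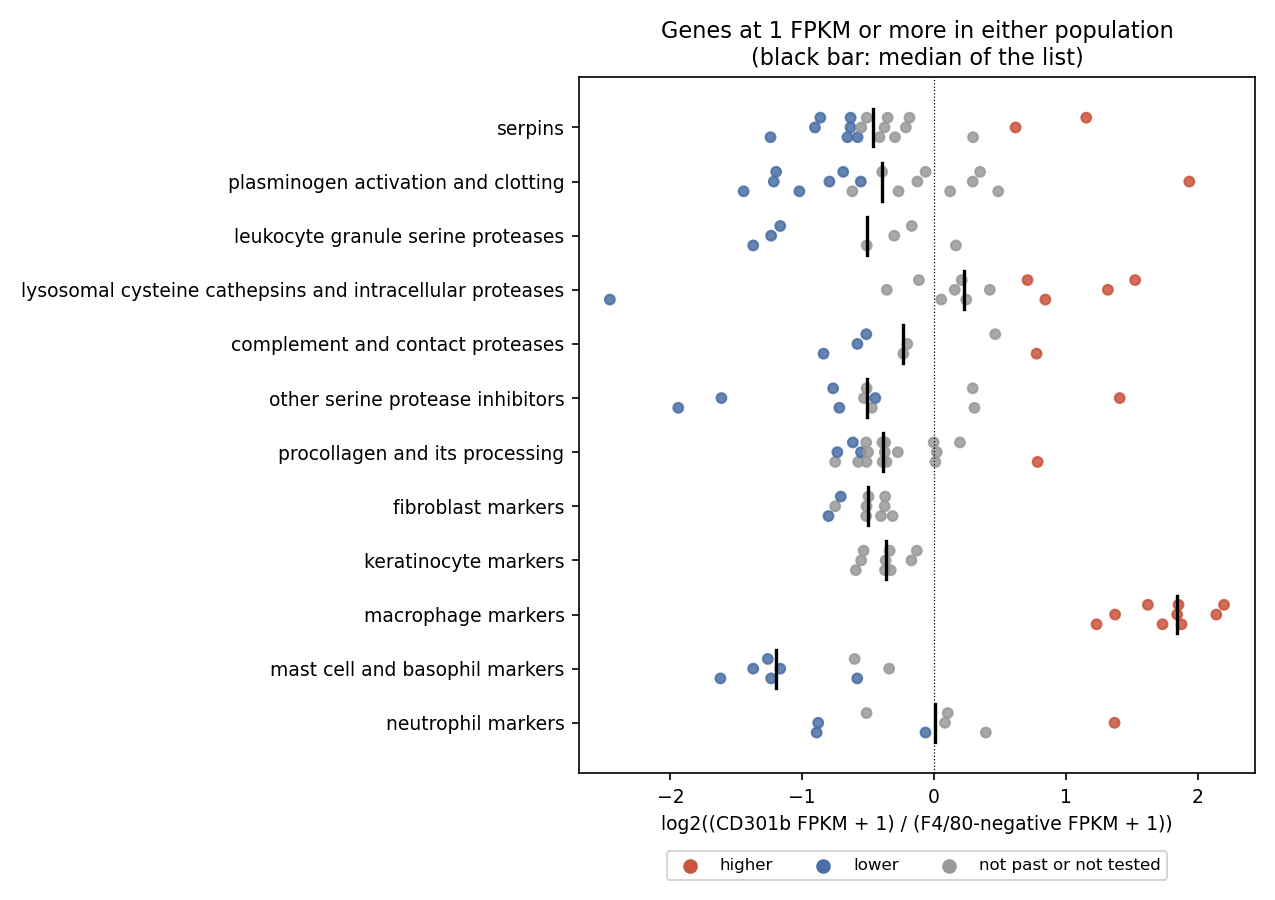
Log2 fold, log2((CD301b FPKM + 1) / (F4/80-negative FPKM + 1)), of genes at 1 FPKM or more in either population, 1 point per gene, for the serpins, the protease and partner lists and 5 marker lists, with the median of each as a black bar and points coloured by call. The serpin median of -0.46 lies near those of several lists, so its nearness singles out none of them. These are fibroblast markers (-0.50), other serine protease inhibitors and granule serine proteases (both -0.51). Plasminogen activation and clotting and procollagen (both -0.39) lie near it too. The medians of cathepsins and intracellular proteases (0.23) and of macrophage markers (1.84) are positive.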

How the data were processed

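RNA of 4 sorted libraries was sequenced after an Illumina TruSeq mRNA preparation, per the labels' protocols. Per the submitters' processing notes, the tools included Cuffdiff 2.0.2 and TopHat2 2.0.2, and the build was mm9. The authors deposited 1 transcript table, which per the file headers holds an FPKM for each population and an unadjusted p-value (deposited floor 5e-05). The sources used here do not give how libraries were combined, counted and filtered. Serpin loci overlapped RefSeq genes of GRCm38 in 81 of 81 matched transcripts, so GRCm38 positions, counted from 1, are printed.

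P-values were adjusted by the Benjamini-Hochberg method over the 16921 transcripts with status OK, and the result matched the deposited significance in all of them. Log2 folds use a pseudocount of 1 FPKM and understate the change of low genes. Symbols turned into dates (25) were restored by accession. Members and lists were chosen with earlier results of these data known. Named were all serpins at 1 FPKM or more, all called serpins, and up to 5 called list genes at 5 FPKM or more with the most abundant one. One serpin is counted but not reported here by name. Other genes named were chosen as known targets or after their values were seen. The code that makes the calls was run on simulated data, which does not test how reliable calls from 2 libraries per population are. Alternatives were another pseudocount, filter, scaling, threshold and the most abundant transcript alone. Tools were Python 3.11.15, pandas 2.3.3, numpy 2.4.6 and Biopython 1.88.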

Additional observations from a re-analysis of the deposited data

How the results depend on the processing

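At an adjusted p of 0.01 (Benjamini-Hochberg over the deposited Cuffdiff p-values), 1 serpin was higher and 4 were lower in place of 2 and 7: Serpinb8, Serping1, Serpinb5 and Serpina3b lost their calls. With the most abundant transcript alone, 1 serpin was higher, since Serpinb8 lost its call, and the log2 fold of Serpinb2 reversed to 0.17, still without a call. The serpin median log2 fold of -0.46 became -0.072 over all 63 members and -0.57 when scaled to the median gene. At 0.01 the lower genes fell to 1 among complement and contact proteases, 3 among other inhibitors and 1 among procollagen genes. The share of all tested genes called at 0.01 was not computed, so the counts at 0.01 cannot be set beside it. Calls rest on the deposited p-values, which a pseudocount or scaling does not touch, so these alternatives say nothing about them, and scaling to the median gene changed the direction of none of the 18 serpins at 1 FPKM or more. No paired analysis was possible because the table holds 1 value per population, and for the same reason no replicate could be left out and depth is unknown.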
